A study of Mus musculus with 7 samples.

Results

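The genes described here are Trp53, which encodes p53, with its paralog Trp73, the p53 regulators Mdm2, Mdm4 and Cdkn2a, and the p53 targets Cdkn1a, Ccng1, Btg2, Zmat3 and Sesn2. They were chosen by name, with earlier results of these data known. They are 10 of the 35727 Ensembl genes in the count table, and each had 1 row. The libraries were polyA RNA-seq of mouse undifferentiated pleomorphic sarcoma cells, sorted from tumours by red fluorescent protein (RFP). All cells descended from mesenchymal stem cells of female C57/Bl6 p53 knockout mice that carried a retroviral vector for Ccne1 (cyclin E1, 4 libraries) or for Vgll3 (a cofactor of TEAD transcription factors, 3 libraries). Each line went through wild-type female C57/Bl6 recipients before the transplant from which cells were sorted, so by label the tumour cells of both groups lacked p53, and there was no p53 wild-type control; the genotype of the final hosts is not given in the labels. The labels name 1 cell line per model and no separate tumour or animal for each library, so each p-value reflects only how far these libraries spread, possibly for technical reasons, and a model cannot be told apart from its line.

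p53 is a transcription factor that is stabilised by DNA damage and other stress and then switches on genes for cell cycle arrest, cell death, DNA repair and metabolism. Mdm2, itself a p53 target, is a ubiquitin ligase that sends p53 to degradation, Mdm4 binds and inhibits it, and the ARF product of Cdkn2a inhibits Mdm2. Trp73 and Trp63 encode related factors that can bind the same DNA element. Many p53 targets are also switched on by other factors, and loss of p53 is common in sarcomas.

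Of 13 RefSeq promoter windows (GRCm38.p6, 250 bases before to 50 after a start) that matched 9 of the 10 genes, 2 held the p53 response element. It was searched as a pair of joined p53 decamers with the core C and G fixed in each and at most 1 other mismatch. The element reads as the same pattern on both strands. It was found in 22 of all 32851 promoters of this length (0.067%), or in 206 (0.627%) when up to 13 bases were allowed between the decamers. With 2 mismatches and no gap, 1 window of Trp73 matched as well. The matched windows of Cdkn1a and Ccng1 are shown with the match in capitals. The window of the other Cdkn1a start, chr17:29093519-29093818, had no match and is not shown. Those of Btg2 and Sesn2, the only members that rose, are shown without a match. Mdm2 and Mdm4, which fell, had no match in their windows either, nor had Trp53 and Cdkn2a, and Zmat3 had no window. Elements outside these windows were not searched, and a link between a match and the direction of change was not tested. The printed windows read 5′ to 3′ on the strand of the gene.
Cdkn1a, upstream start, chr17:29090729-29091028, plus strand: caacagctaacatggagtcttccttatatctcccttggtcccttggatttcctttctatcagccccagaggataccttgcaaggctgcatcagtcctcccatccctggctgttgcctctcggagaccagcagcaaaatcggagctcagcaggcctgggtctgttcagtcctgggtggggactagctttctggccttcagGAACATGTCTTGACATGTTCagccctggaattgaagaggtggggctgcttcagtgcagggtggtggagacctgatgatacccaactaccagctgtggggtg
Ccng1, chr11:40755237-40755536, minus strand: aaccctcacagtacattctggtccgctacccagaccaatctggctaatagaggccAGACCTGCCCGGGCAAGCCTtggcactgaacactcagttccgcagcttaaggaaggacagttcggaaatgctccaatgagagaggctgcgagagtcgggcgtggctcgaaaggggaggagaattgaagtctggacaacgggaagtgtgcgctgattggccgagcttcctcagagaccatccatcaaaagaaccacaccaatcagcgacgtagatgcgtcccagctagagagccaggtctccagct
Btg2, chr1:134079106-134079405, minus strand: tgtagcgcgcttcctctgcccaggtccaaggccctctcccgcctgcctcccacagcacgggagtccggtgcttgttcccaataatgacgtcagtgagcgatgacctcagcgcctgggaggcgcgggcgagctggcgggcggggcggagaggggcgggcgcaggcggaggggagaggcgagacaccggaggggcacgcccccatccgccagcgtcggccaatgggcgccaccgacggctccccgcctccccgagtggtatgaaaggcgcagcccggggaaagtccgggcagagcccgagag
Sesn2, chr4:132510407-132510706, minus strand: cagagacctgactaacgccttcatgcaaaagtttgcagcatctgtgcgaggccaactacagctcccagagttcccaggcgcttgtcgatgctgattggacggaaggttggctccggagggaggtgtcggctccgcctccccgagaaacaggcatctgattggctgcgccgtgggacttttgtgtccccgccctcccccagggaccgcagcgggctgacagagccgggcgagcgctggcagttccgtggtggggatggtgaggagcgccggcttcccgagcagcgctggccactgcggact
The Cdkn1a match, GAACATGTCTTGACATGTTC, lay at chr17:29090928-29090947, and the Ccng1 match, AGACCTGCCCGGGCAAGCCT, at chr11:40755462-40755481. A match describes these letters only; binding was not measured.

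Library totals ran from 21725890 to 53610300 counts, and values below are CPM (counts scaled by effective library size) as mean ± SD, first of the Ccne1-labelled (n = 4) and then of the Vgll3-labelled libraries (n = 3). Vgll3 itself was 50.7 ± 8.57 and 252 ± 34.6 CPM, 4.96-fold higher in the libraries labelled for it (edgeR adjusted p = 1.2e-05). Ccne1 was 12.7 ± 5.61 and 14.9 ± 2.16 CPM (edgeR adjusted p = 0.609), not higher where it was labelled, so the groups are called by their labels. Vgll3 replicate 3 correlated with its partners at only 0.959 and 0.963 (Pearson r across genes), where all other pairs of one label reached 0.980 to 0.988. The 8 mesenchymal markers summed to 32367 to 36788 CPM and 47883 to 56165 CPM, without overlap. Of these, 5 rose and 2 fell (87.5% called, against 51.9% of all tested genes). Vim (vimentin) fell from 13973 ± 1413 to 4375 ± 238 CPM and Pdgfra from 919 ± 60.1 to 226 ± 46.1 CPM, while Col1a2, a collagen gene, rose from 4197 ± 463 to 17309 ± 2673 CPM and Fn1 (fibronectin) from 9463 ± 782 to 12555 ± 666 CPM. The 5 leukocyte markers summed to 10.7 to 22.8 CPM in the Ccne1-labelled and 8.69 to 15.4 CPM in the Vgll3-labelled libraries, and 5 endothelial markers to 39.98 to 112 and 28.1 to 215 CPM. The macrophage, pericyte, red blood cell and epithelial marker sums differed between the labels without overlap. So did those of T and NK cells and of neutrophils, which reached at most 2.31 and 1.54 CPM in any library. The 8 macrophage markers summed to 59.6 to 79.3 CPM and 11.5 to 21.3 CPM. Of these, Cd14 alone was at 59.4 ± 7.89 and 6.39 ± 1.85 CPM (log2 fold change −3.20). Adgre1, the gene of F4/80, reached at most 0.227 CPM. The 5 other macrophage markers tested were not called. Their log2 fold changes were 0.32 (Csf1r), 0.01 (C1qb), −0.17 (Lyz2), −0.36 (Cd68) and −0.91 (C1qa). Pericyte and smooth muscle markers summed to 3.87 to 7.26 CPM and 14.02 to 23.7 CPM, red blood cell markers to 5.73 to 10.3 CPM and 0.189 to 2.21 CPM, and epithelial markers to 2.03 to 4.73 CPM and 0.151 to 1.004 CPM. The genes of a list did not all move together. Of the pericyte list, Rgs5 and Notch3 rose, while Kcnj8 was at 0.619 ± 0.272 and 0.240 ± 0.0783 CPM and was not called. Hba-a1 and Krt8 made up most of the red blood cell and epithelial sums under the Ccne1 label. Both fell, while Hbb-bs of the red blood cell list was at 0.459 ± 0.363 and 0.323 ± 0.449 CPM and was not called. Epithelial Cdh1 was at 0.187 ± 0.0857 and 0.417 ± 0.375 CPM, too low to test. The sums that differed moved with the differences between the models in the members, and their part in them was not tested. In such bulk RNA, fewer cells of a type and less RNA per cell cannot be told apart.

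Trp53 (ENSMUSG00000059552, mm10 chromosome 11, 69580359 to 69591873, protein-coding) was the steadiest of the members. It was at 69.7, 66.7, 63.1 and 66.3 CPM in Ccne1-labelled replicates 1 to 4 and at 75.4, 66.9 and 69.9 CPM in Vgll3-labelled replicates 1 to 3. The groups overlapped, and no library departed from its group's mean by more than 0.09 on the log2 scale. The log2 fold change, Vgll3-labelled over Ccne1-labelled, was 0.09 (SE 0.07, 95% interval −0.07 to 0.25, edgeR adjusted p = 0.298), with interval ends 1.19-fold higher and 1.05-fold lower. Per kb of annotated exon, Trp53 averaged 16.9 CPM, above 80.0% of 13704 tested genes with a length. Between 1531 and 3518 counts per library stood behind it, while its processed pseudogene Trp53-ps had 9 counts over all libraries. The deleted exons are not named in the sources used here and a gene-level count does not show which exons the reads cover, so these values check neither the knockout nor the label. The leukocyte gene Ptprc (CD45) was at 0.0727 to 3.05 CPM and the endothelial gene Pecam1 at 19.6 to 184 CPM. The part of RNA from other cells in the Trp53 level was not tested.

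The genes next to Trp53 did not all behave as it did. Wrap53, which encodes a telomerase RNA-binding protein and starts 103 bases away on the opposite strand, fell from 8.36 ± 0.535 to 5.89 ± 0.687 CPM under the Vgll3 label (log2 fold change −0.51 with SE 0.13; edgeR adjusted p = 0.0112). Atp1b2, a sodium pump subunit gene 7.86 kb away, was low and rose from 0.163 ± 0.104 to 0.5397 ± 0.205 CPM (1.67 on the log2 scale; edgeR adjusted p = 0.0412). Efnb3 at 20.2 kb and Sat2 at 30.15 kb had log2 fold changes of 0.34 and 0.54 and were not called (edgeR adjusted p = 0.514 and 0.106). Fxr2, an RNA-binding protein gene 41.1 kb from Trp53, fell from 184 ± 9.97 to 116 ± 2.59 CPM (edgeR adjusted p = 7.68e-05). The tested genes within 1 Mb of Trp53 had a median log2 fold change of −0.23, with 31 of 69 lower and 11 higher. Over all tested genes, 26.8% were lower and 25.1% higher. The other tested genes of chromosome 11 had a median of −0.30. The 3 genes whose pattern was most like that of Trp53 over the 7 libraries were Kdm2b, Trappc4 and Cep85, with root mean square differences of 0.0297, 0.0423 and 0.0480 in centred log2 CPM, where the median over 8815 candidate genes was 0.231. None of these was called.

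The paralogs were close to silent. Trp73 (chromosome 4, 154056253 to 154140208) had 2, 6, 0 and 1 counts in the Ccne1-labelled and 1, 4 and 3 counts in the Vgll3-labelled libraries, at most 0.151 CPM. Trp63 was at 0.136, 0.135, 0.155 and 0.254 CPM and at 0.0429, 0 and 0.134 CPM in the same order. A count of 3, the limit that a count of 0 allows, equals 0.0577 to 0.136 CPM here and covers counting error only. Both genes were too low to test. For Trp63 each Ccne1-labelled library lay above each Vgll3-labelled one, the nearest at 0.135 and 0.134 CPM. At this depth no difference in either gene could be established.

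Cdkn2a (ENSMUSG00000044303, chromosome 4, 89274471 to 89294653), the gene of p16INK4a and p19ARF, was also nearly absent. It had 0, 1, 2 and 0 counts in the Ccne1-labelled and 1, 1 and 0 counts in the Vgll3-labelled libraries, 5 counts in all 7 libraries together. Its neighbour Cdkn2b, which encodes the related inhibitor p15INK4b and lies 11.6 kb away, had 7 counts over all libraries, none of them in a Vgll3-labelled library. Dmrta1, 385 kb off on the same side as Cdkn2b, had 1 count. On the other side, Mtap, which encodes an enzyme of methionine salvage, lies 93.4 kb from Cdkn2a and was read at 151, 135, 169 and 159 CPM under the Ccne1 label and 332, 351 and 300.3 CPM under the Vgll3 label. Mtap rose without overlap (1.10 on the log2 scale with SE 0.09; edgeR adjusted p = 3.1e-05), and Klhl9 beyond it was at 49.8 ± 6.99 and 47.8 ± 5.004 CPM (edgeR adjusted p = 0.700). Of 52 annotated genes within 1 Mb of Cdkn2a, 4 were abundant enough to test. The tested genes of chromosome 4 had a median log2 fold change of 0.44. The 2 RefSeq promoter windows of Cdkn2a, for its separate first exons, held 45 and 12 CpG dinucleotides. A gene-level count cannot tell the INK4a and ARF transcripts apart.

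**Figure D1:**
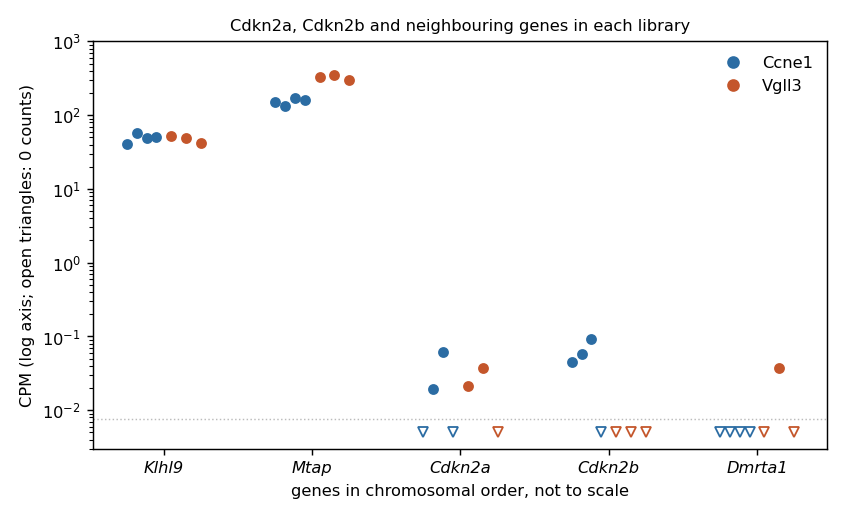
CPM on a log axis of 5 genes in their order along chromosome 4 (not to scale), each point 1 library, blue Ccne1-labelled and orange Vgll3-labelled, with open triangles for a count of 0. Mtap lies between 135 and 351 CPM, while Cdkn2a, Cdkn2b and Dmrta1 have at most 2, 3 and 1 counts in any library.

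Of the 8 members tested, 6 differed between the models. Mdm2, Mdm4, Ccng1 and Zmat3 were lower, and Btg2 and Sesn2 were higher, in the Vgll3-labelled libraries, and the same 6 had groups that did not overlap. The models differed widely: 51.9% of 13740 tested genes were called (25.1% higher and 26.8% lower), and 55.7% did not overlap, where the members had 6 of 8 by either rule. The median log2 fold change of the 8 was −0.43, against 0.01 for all tested genes. Because the members were chosen with earlier results of these data known, these comparisons with all genes are descriptive only.

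**Figure D2:**
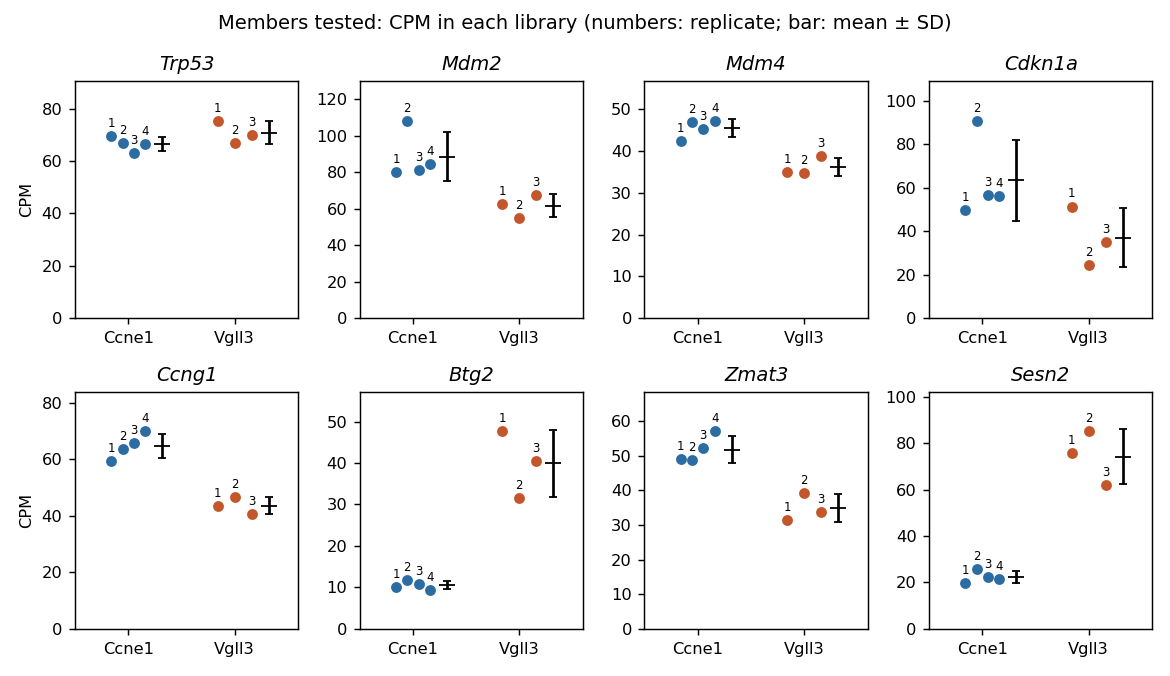
CPM of the 8 members tested, each point 1 library with its replicate number, and the mean ± SD beside each group; every axis starts at 0. Trp53 and Cdkn1a overlap between the groups, Mdm2, Mdm4, Ccng1 and Zmat3 are lower in every Vgll3-labelled library, and Btg2 and Sesn2 are higher in each.

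Both inhibitors of p53 fell in the Vgll3-labelled libraries. Mdm2 (chromosome 10, 117688875 to 117710758) was at 80.2, 108, 81.3 and 84.5 CPM in the Ccne1-labelled and 62.4, 54.8 and 67.6 CPM in the Vgll3-labelled libraries. Ccne1 replicate 2 was the high one, and the lowest Ccne1-labelled library was still above the highest Vgll3-labelled one. The log2 fold change was −0.52 (SE 0.12, edgeR adjusted p = 0.0062), so that the Ccne1-labelled mean exceeded the other 1.44-fold, and it was −0.41 (edgeR adjusted p = 0.00664) without that replicate. Mdm4 (chromosome 1, 132959484 to 133030561) was at 42.4, 46.9, 45.2 and 47.2 CPM against 34.9, 34.8 and 38.7 CPM, a narrow spread in both groups. Its log2 fold change was −0.33 (SE 0.08, edgeR adjusted p = 0.00559). The tested genes within 1 Mb had medians of 0.07 around Mdm2 and 0.11 around Mdm4.

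Cdkn1a (chromosome 17, 29090976 to 29100727), the gene of the cyclin-dependent kinase inhibitor p21 and the best known arrest target of p53, was the most variable member. It was at 49.9, 90.9, 56.6 and 56.1 CPM in the Ccne1-labelled and at 51.4, 24.5 and 35.0 CPM in the Vgll3-labelled libraries. Vgll3 replicate 1 lay above the lowest Ccne1-labelled library, so the groups overlapped. The log2 fold change was −0.78 (SE 0.31, 95% interval −1.50 to −0.05) with an edgeR adjusted p of 0.0699, which misses the threshold and does not show equal levels. It was called with DESeq2 (log2 fold change −0.76, adjusted p = 0.00834) and without Vgll3 replicate 1 (−1.10, edgeR adjusted p = 0.0224). It shrank to −0.49 (edgeR adjusted p = 0.303) without Ccne1 replicate 2 and Vgll3 replicate 3. The 29 tested genes within 1 Mb had a median of −0.53, with 21 lower and 4 higher, where 26.8% of all tested genes were lower and 25.1% higher. The other tested genes of chromosome 17 had a median of −0.33.

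Ccne1 replicate 2 also had the most RNA of several genes that react to tissue dissociation. Fos, an immediate-early factor, was at 1144, 1596, 1341 and 1275 CPM and Ier3, an early stress gene, at 724, 1061, 776 and 804 CPM in Ccne1-labelled replicates 1 to 4. The 8 dissociation stress genes summed to 6822 to 9353 CPM, with replicate 2 highest, and to 8344 to 11283 CPM in the Vgll3-labelled libraries, with replicate 1 highest, the library that was also highest for Cdkn1a in that group. Jun alone was at 6169 CPM in that library. Junb, Egr1 and Ier3 were also highest there, while Fos (1148, 1024 and 1315 CPM in replicates 1 to 3), Atf3, Hspa1a and Hspa1b were highest in Vgll3 replicate 3. Of the list, 2 rose and 2 fell. Egr1, an immediate-early factor, rose from 183 ± 12.3 to 1376 ± 53.2 CPM (2.91 on the log2 scale; edgeR adjusted p = 8.37e-07), and Ier3 fell from 841 ± 150.3 to 152 ± 67.7 CPM (−2.46 on the log2 scale; edgeR adjusted p = 0.000526). Atf3, a stress factor, fell from 277 ± 37.1 to 174 ± 40.5 CPM. Jun, the most abundant, rose from 3346 ± 398 to 5180 ± 919.7 CPM (edgeR adjusted p = 0.00461). Their part in the levels of Cdkn1a, Mdm2 and Btg2 was not tested. The genes most like Cdkn1a in pattern over the 7 libraries were Itpk1, Sbno2 and Bhlhe41, with root mean square differences of 0.115, 0.122 and 0.128 in centred log2 CPM, where the median of the candidates was 0.558. All 3 were called lower (edgeR adjusted p = 0.0459, 0.0249 and 0.0484), but not in every alternative setting.

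**Figure D3:**
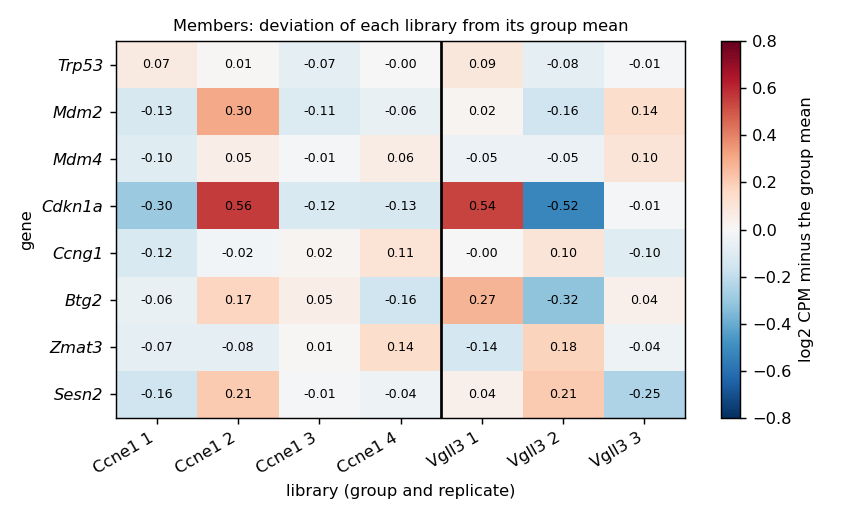
Difference of log2 CPM of each library from the mean of its group, for the 8 members tested (rows) and the 7 libraries (columns), red above and blue below. Cdkn1a ranges from −0.52 to 0.56, while Trp53 stays within −0.08 to 0.09.

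Ccng1 and Zmat3, both direct p53 targets, fell together in the Vgll3-labelled libraries. Ccng1 (chromosome 11, 40748552 to 40755311), whose product cyclin G1 works with phosphatase 2A on Mdm2, was at 59.3, 63.7, 65.6 and 69.9 CPM against 43.4, 46.7 and 40.7 CPM. It was the member with the clearest decrease, at −0.57 on the log2 scale with an SE of 0.08 (edgeR adjusted p = 0.00046). Zmat3 (chromosome 3, 32334792 to 32366014), an RNA-binding zinc finger protein, was at 49.1, 48.8, 52.2 and 57.1 CPM against 31.5, 39.4 and 33.9 CPM. Its log2 fold change was also −0.57 (SE 0.10, edgeR adjusted p = 0.00125). The size was alike in these genes, with Ccne1-labelled means 1.48-fold and 1.49-fold above the others. The genes within 1 Mb had medians of 0.05 around Ccng1 (4 genes) and −0.28 around Zmat3 (8 genes). The other tested genes of chromosome 11, which holds Ccng1, had a median of −0.30, and those of chromosome 3, which holds Zmat3, of −0.09.

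Btg2 and Sesn2 went the other way and by far more. Btg2 (chromosome 1, 134075170 to 134079120), an antiproliferative gene that recruits mRNA deadenylases, was at 10.1, 11.9, 10.9 and 9.41 CPM in the Ccne1-labelled and 47.6, 31.6 and 40.5 CPM in the Vgll3-labelled libraries. The log2 fold change was 1.92 (SE 0.14, edgeR adjusted p = 1.67e-05), a 3.77-fold rise. Sesn2 (chromosome 4, 132492032 to 132510501), a stress-induced inhibitor of mTORC1 that senses leucine, was at 19.9, 25.8, 22.2 and 21.7 CPM against 75.8, 85.2 and 61.9 CPM. It rose 3.31-fold (log2 fold change 1.73 with SE 0.12; edgeR adjusted p = 1.44e-05). Sesn1, a p53 target of the same family, was at 14.3 ± 1.296 and 15.3 ± 1.56 CPM (edgeR adjusted p = 0.506). Sesn2 lies on chromosome 4, where the other tested genes had a median log2 fold change of 0.44, and within 1 Mb of it 19 of 29 were higher and 4 lower (median 0.48). Over all tested genes, 25.1% were higher and 26.8% lower. Around Btg2 the median was 0.09 over 19 genes. The part of chromosome position in these differences was not tested.

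**Figure D4:**
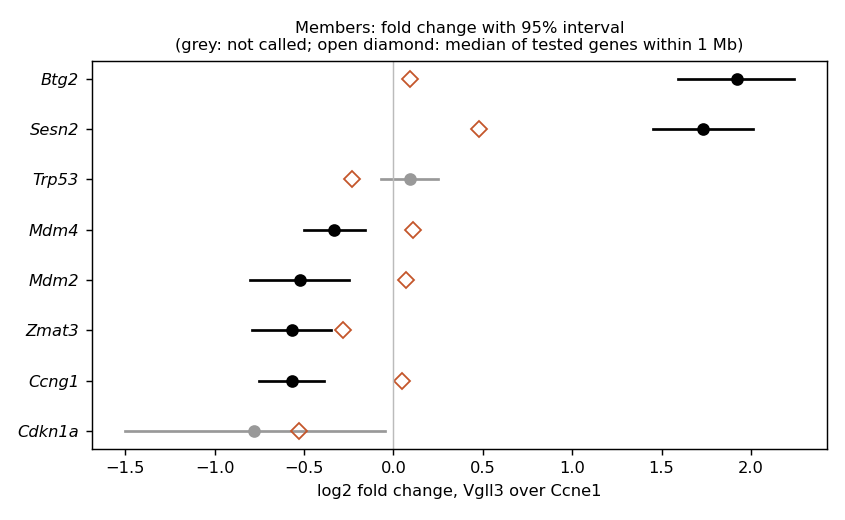
Log2 fold change of the 8 members tested, Vgll3-labelled over Ccne1-labelled, with 95% intervals (black called, grey not called) and the median of tested genes within 1 Mb (open diamonds). Btg2 at 1.92 and Sesn2 at 1.73 stand far above the medians around them, while Cdkn1a at −0.78 lies close to the −0.53 of its neighbourhood.

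Per kb of annotated exon, averaged over the 7 libraries, the members ran from Trp53 (16.9 CPM per kb), Ccng1 (15.8), Mdm2 (15.2), Cdkn1a (14.6), Sesn2 (12.8) and Btg2 (8.44) down to Zmat3 (3.90) and Mdm4 (2.80 CPM per kb). Each neighbouring pair in this order overlapped in range over the libraries, so the order is loose. By this length, Ccng1 was highest in the Ccne1-labelled libraries at 18.4 CPM per kb, and Sesn2 in the Vgll3-labelled ones, at 21.4 CPM per kb. With the longest transcript as the length, Cdkn1a (25.0) and Mdm2 (24.5 CPM per kb) came before Trp53 (20.9 CPM per kb) over the 7 libraries. The highest gene of each group therefore holds for the exon length only.

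The wider set of p53 targets, 57 genes in 5 lists by role, split evenly. Of 54 tested, 13 were higher and 14 lower in the Vgll3-labelled libraries, that is 27 of 54 called where 51.9% of all genes were, with a median log2 fold change of −0.09. The members Cdkn1a, Ccng1, Btg2, Zmat3, Sesn2 and Mdm2 are among the 57. Without Ccne1 replicate 2 and Vgll3 replicate 3, 13 fell and 12 rose.

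Among genes of arrest and signalling, 4 of 13 tested rose and 5 fell (69.2% called, against 51.9% of all tested genes). Plk2, a polo-like kinase, fell most: it was at 414, 661, 455 and 473 CPM under the Ccne1 label and 177, 126 and 182 CPM under the Vgll3 label (log2 fold change −1.63 with SE 0.20; edgeR adjusted p = 0.000297). Its groups were far apart, with Ccne1 replicate 2 again the highest. Plk3, a related kinase, fell from 83.3 ± 6.74 to 55.9 ± 12.9 CPM (edgeR adjusted p = 0.00939). Gtse1, a mitotic gene whose product restrains p53, rose from 9.52 ± 2.54 to 19.4 ± 4.68 CPM (edgeR adjusted p = 0.00695). Gdf15, a secreted stress factor, was listed at 0 in every Ccne1-labelled library and reached at most 0.469 CPM in the others; it was too low to test.

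Of 8 feedback genes tested, 5 fell and 2 rose (87.5% called, against 51.9% of all tested genes). Besides Mdm2 and Ccng1, Rchy1, which encodes the p53 ubiquitin ligase PIRH2, fell from 42.8 ± 1.32 to 27.4 ± 2.03 CPM (log2 fold change −0.64 with SE 0.08; edgeR adjusted p = 0.000172). Ppm1d, the phosphatase WIP1, fell from 17.05 ± 1.35 to 14.02 ± 0.740 CPM (edgeR adjusted p = 0.035), and Trp53inp1, a stress protein that promotes p53 activity, from 17.6 ± 3.51 to 12.1 ± 0.785 CPM (edgeR adjusted p = 0.0169). Phlda3, an inhibitor of AKT, rose from 34.5 ± 3.23 to 42.9 ± 5.96 CPM (edgeR adjusted p = 0.0392), with groups that overlapped. Pidd1, the other gene that rose, was at 3.70 ± 0.734 and 6.19 ± 2.20 CPM (edgeR adjusted p = 0.0467), and its groups overlapped too. These 8 genes had a median of −0.40, against 0.01 for all tested genes.

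Cell death genes were mixed, with 5 higher and 4 lower of 15 tested (60.0% called, against 51.9% of all tested genes). Pmaip1, the BH3-only gene of NOXA, was at 58.5, 63.96, 59.9 and 64.9 CPM under the Ccne1 label and 36.8, 17.7 and 23.3 CPM under the Vgll3 label. It fell without overlap (log2 fold change −1.25 with SE 0.23; edgeR adjusted p = 0.00263), and missed the threshold without Ccne1 replicate 2 and Vgll3 replicate 3 (−1.14, edgeR adjusted p = 0.0503). Bax, a pore-forming effector, fell from 57.6 ± 1.74 to 40.1 ± 5.28 CPM (edgeR adjusted p = 0.00159), while Bbc3, the gene of PUMA, was at 16.01 ± 1.21 and 14.6 ± 1.16 CPM (edgeR adjusted p = 0.305). Apaf1, the core of the apoptosome, rose from 34.1 ± 1.45 to 59.2 ± 3.45 CPM (edgeR adjusted p = 4.14e-05). The receptor gene Eda2r also rose, from 3.35 ± 1.05 to 6.67 ± 1.098 CPM (edgeR adjusted p = 0.00844). The death receptor gene Fas was low in both groups, at 0.466 ± 0.232 and 1.598 ± 0.404 CPM (edgeR adjusted p = 0.015). Perp, a desmosomal p53 target, had no count in any library.

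None of the 8 DNA repair targets was called by edgeR, where 51.9% of all tested genes were, and 1 had an unadjusted p below 0.05. DESeq2 and limma-voom also called 0, while Rrm2b, a ribonucleotide reductase subunit, was called when libraries were scaled by totals only and without Ccne1 replicate 2 and Vgll3 replicate 3. Rrm2b was at 12.8 ± 1.74 and 15.7 ± 0.933 CPM (edgeR adjusted p = 0.0696). The nucleotide excision repair genes Ddb2 (3.48 ± 0.374 and 3.31 ± 0.817 CPM) and Xpc (20.8 ± 2.03 and 20.1 ± 2.29 CPM) had edgeR adjusted p-values of 0.794 and 0.727. The list's median was 0.05.

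Of 13 metabolic and redox targets, 3 rose and 2 fell (38.5% called, against 51.9% of all tested genes). Besides Sesn2, Aldh4a1, a mitochondrial enzyme of proline breakdown, rose from 4.95 ± 0.286 to 10.2 ± 0.934 CPM (log2 fold change 1.04 with SE 0.12; edgeR adjusted p = 0.000171); it too lies on chromosome 4, as do Plk3, Epha2 and Trp53inp1, which fell. Gls2, a glutaminase, was at 1.45 ± 0.314 and 3.61 ± 0.491 CPM (edgeR adjusted p = 0.00254). Sco2, a cytochrome c oxidase assembly factor, fell from 13.7 ± 1.52 to 8.45 ± 0.571 CPM (log2 fold change −0.69 with SE 0.12; edgeR adjusted p = 0.00136). Tigar, which lowers glycolytic flux, was at 7.04 ± 0.814 and 8.24 ± 0.907 CPM (edgeR adjusted p = 0.198).

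**Figure D5:**
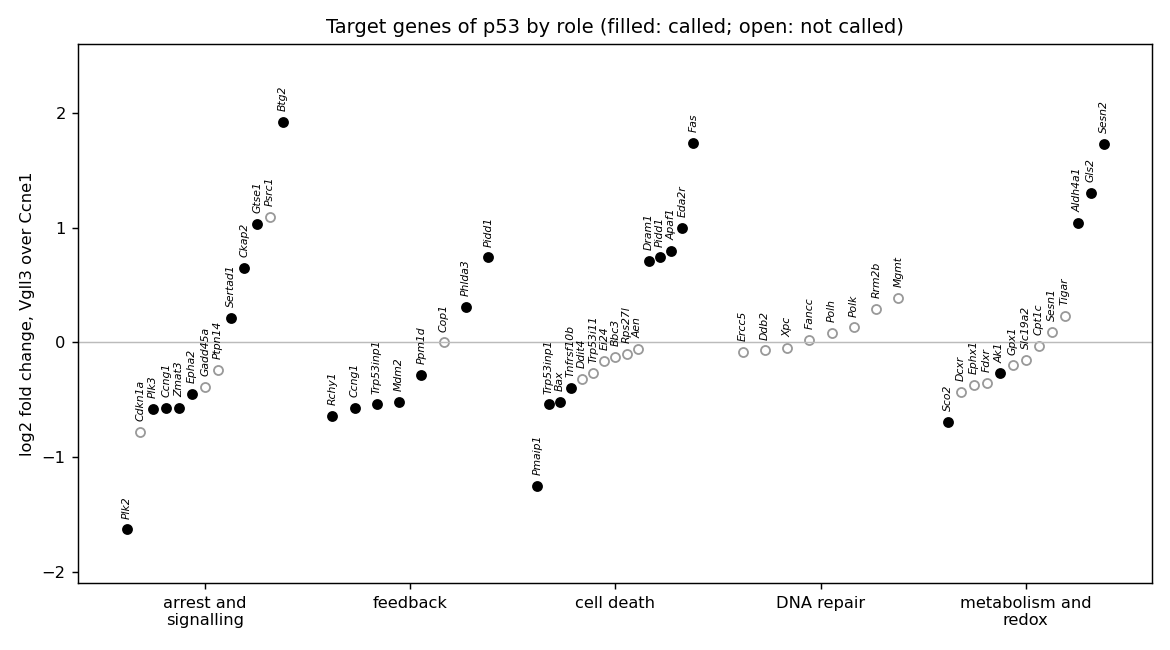
Log2 fold change, Vgll3-labelled over Ccne1-labelled, of each p53 target tested, in 5 lists by role and ordered by value within each (filled called, open not called; Ccng1, Trp53inp1 and Pidd1 appear in 2 lists). Values run from −1.63 (Plk2) to 1.92 (Btg2), and no gene of the DNA repair list is filled.

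Among 33 regulators and cofactors of p53, 31 were tested, of which 7 rose and 9 fell, 51.6% against the 51.9% of all genes, with a median log2 fold change of −0.04. Ppp1r13l, which encodes the p53 inhibitor iASPP, fell from 35.1 ± 1.75 to 20.7 ± 2.07 CPM (log2 fold change −0.76 with SE 0.09; edgeR adjusted p = 0.000152). The methyltransferase gene Kmt5a fell from 213 ± 10.1 to 138 ± 8.75 CPM and Usp7, a deubiquitinase of p53 and Mdm2, from 211 ± 8.43 to 163 ± 5.203 CPM (edgeR adjusted p = 0.000167 and 0.00145). Of the Polycomb genes, whose products are known repressors of Cdkn2a, Ezh2 rose from 27.2 ± 1.18 to 58.4 ± 6.12 CPM (log2 fold change 1.10 with SE 0.09; edgeR adjusted p = 2.14e-05) and Cbx7 from 2.31 ± 0.537 to 5.23 ± 1.81 CPM (edgeR adjusted p = 0.00702). Bmi1 was at 52.95 ± 3.02 and 62.7 ± 7.34 CPM (edgeR adjusted p = 0.0514). Of the damage kinases, Chek1 rose from 7.38 ± 1.48 to 14.5 ± 0.961 CPM and Atm from 31.5 ± 3.297 to 40.04 ± 2.58 CPM, while Chek2 was at 6.05 ± 0.547 and 5.88 ± 0.287 CPM. Npm1, Rpl5, Rpl11 and Rps27l have close pseudogene copies among which reads can be split, so their values are uncertain.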

How the data were processed

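PolyA RNA-seq libraries of sorted sarcoma cells, 4 labelled Ccne1 and 3 labelled Vgll3 in their titles, were compared. The authors deposited 1 table of estimated counts, with Ensembl gene IDs, and used Salmon and mm10, per the submitters' processing notes, while neither label nor header names the version, the annotation or the use of strand. All values were whole. Symbols, coordinates and exon lengths came from GENCODE M21 (GRCm38, the same build), which held 35493 of the 35727 genes. Genes passing filterByExpr were tested with edgeR 4.0.16 in R 4.3.3 (TMM, robust quasi-likelihood F test, Benjamini-Hochberg over all tested genes, threshold 0.05), checked on simulated counts. CPM used TMM effective sizes, and the biological coefficient of variation was 20.7%. Libraries of one label were not duplicates (chi-square over genes 12.4 to 96.3 times its degrees of freedom). The alternatives were DESeq2 1.42.0 (its test and its size factors), limma-voom 3.58.1, library totals, no low-count filter, a replicate block and each library left out.

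The members and lists were chosen with earlier results of these data known. Named genes were the members, Trp63, Wrap53, Vgll3, Ccne1, the 5 target and 3 regulator genes per direction with the largest called change and at least 5 CPM, the most abundant gene of each marker list with Ptprc, and the 3 genes most like Trp53 and Cdkn1a among those of at least 10 CPM, by centred log2 CPM with a prior count of 3. The last rule was not applied to Cdkn2a, which was too low. Mtap, Klhl9, Cdkn2b, Dmrta1, Fxr2, Atp1b2, Efnb3, Sat2, Fos, Ier3, Egr1, Atf3, Vim, Pdgfra, Col1a2, Adgre1, Trp53-ps and list members outside the rule (among them Apaf1, Bax, Bbc3, Fas, Gls2, Ppm1d, Rrm2b, Usp7, Atm and Bmi1) were chosen after their values were seen, as were the limits of the motif search. Trp53cor1, on a target list, matched no row. The marker sums whose ranges are not given in the results follow, first for Ccne1-labelled and then for Vgll3-labelled libraries. They were 1.49 to 2.31 CPM and 0.814 to 1.37 CPM for T and NK cells (Trac highest). B cells (Cd79a) had 0.681 to 1.64 CPM and 0.965 to 4.99 CPM, which overlapped. Neutrophils (Cxcr2) had 0.597 to 0.955 CPM and 0.965 to 1.54 CPM. Over all libraries Krt8, Notch3 and Hba-a1 were the most abundant epithelial, pericyte and red blood cell markers. Laptm5 was the most abundant leukocyte marker.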

Additional observations from a re-analysis of the deposited data

Results flagged for a closer look

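In the 4 Ccne1-labelled libraries, 1 library stood far from the other 3 for 5 of the 42 named genes tested, by Dixon's ratio of the gap to the range above its 95% critical value. Chance alone marks about 1 in 20 such groups, a rate that does not hold for genes chosen by their pattern over these libraries. For Cdkn1a, Ccne1 replicate 2 was high at 90.9 CPM (ratio 0.836), and for Mdm2 the same library was high at 108 CPM (ratio 0.847). Krt8, an epithelial keratin gene, was high there as well (3.93 CPM, ratio 0.906). Sbno2 was also high there (225 CPM, ratio 0.880), but it was named because its pattern over these libraries was like that of Cdkn1a, so its value is not independent of that of Cdkn1a. Vgll3 was low in Ccne1 replicate 1, at 37.9 CPM (ratio 0.895). Over the 54 targets tested, replicate 2 was the highest of the 4 libraries for 21, replicate 4 for 18, replicate 1 for 8 and replicate 3 for 7.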

How the results depend on the processing

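Every member called kept its direction and its call under each alternative, except Mdm4, whose log2 fold change was −0.31 with the replicate block and not called (adjusted p = 0.0616, edgeR). The block also ended the calls of Wrap53, Eda2r, Cbx7 and Jun (adjusted p = 0.096, 0.0624, 0.0637 and 0.056). Cdkn1a was called with DESeq2 (−0.76) and without Vgll3 replicate 1, and leaving libraries out moved it between −1.10 and −0.49. Same-numbered libraries of the groups did not deviate together (r of their deviations −0.151, −0.167 and −0.103), and unlike-numbered pairs reached 0.155. So few pairs cannot exclude a shared batch, and the titles name none. The block lowered the calls from 7133 to 4841 genes, those higher from 3454 to 2287, and the targets counted higher from 13 to 8. Leaving out libraries gave 6023 to 7334 called genes, 10 to 12 targets higher and 12 to 16 lower. Without Ccne1 replicate 2 and Vgll3 replicate 3, a setting chosen after seeing the data, the Ccne1 value was −0.01 and that of Pecam1 −0.82, and with single libraries left out they ran up to 0.45 and from −0.60 (without Vgll3 replicate 3) to 1.40. With the longest transcript as the length, levels were 20.9 (Trp53), 24.5 (Mdm2), 25.0 (Cdkn1a), 5.72 (Zmat3) and 5.83 (Mdm4) CPM per kb. Within 5 Mb, neighbourhood medians were 0.47 (Trp73), −0.11 (Mdm2), 0.46 (Cdkn2a), −0.35 (Cdkn1a), −0.21 (Ccng1), −0.16 (Zmat3) and 0.35 (Sesn2). The cause of these shifts was not tested. Trp73, Trp63, Cdkn2a and Cdkn2b lay at or near the limit of 3 counts, where depth allows no firm comparison.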
